A study of Mus musculus with 59 samples.

Results

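PPARα and PPARδ binding was compared in livers of overnight fasted mice, using the list of peaks that ChIP-seq with each antibody gave. The fasted PPARα list held 29085 peaks and the fasted PPARδ list held 2399, together 31484 of the 102931 peaks in the 7 lists of the series. A PPARδ peak and a PPARα peak were called shared if their centers lay within 200 bp of each other, and every other peak was called PPARα alone or PPARδ alone. All mice of both lists were male wild-type C57BL/6 animals with no engineered allele, and each list combined 3 livers per antibody (6 samples in all). The fed C57BL/6 lists for the same antibodies (3 livers each) and the fasted and fed C57BL/6 lists for BCL6, a zinc finger repressor (3 livers each), served as further readouts at these peaks. ChIP-seq recovers the DNA fragments that an antibody pulls down from crosslinked nuclei, here from whole liver, so binding in hepatocytes and in the other cells of the liver was read together.

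PPARα and PPARδ are nuclear receptors that fatty acids and their derivatives activate. Each binds DNA as a heterodimer with RXR, on an element called DR1 that holds AGGTCA repeated in the same direction with 1 base between the copies. PPARα is the main PPAR of the hepatocyte and is known for switching on fatty acid oxidation and ketone body formation in fasting, whereas PPARδ is expressed in most tissues and is known for fatty acid oxidation in muscle.

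Both lists give positions in mm10 and nothing else, with 222 bp per PPARα peak and 204 bp per PPARδ peak. They hold no read count, height or p-value. The depth behind the peaks is therefore unknown, a site can only be scored as listed or not listed, and no value below has an error between livers. The PPARα list was 12.1 times as long as the PPARδ list, and whether shared peaks were higher PPARα peaks could not be read from positions. Fisher's exact tests below take peaks as the units, which measures counting error only, as do the 95% Wilson intervals in brackets.

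Most of the fasted PPARδ list coincided with PPARα. A PPARα peak lay within 200 bp of 1713 of 2399 PPARδ peaks, 71.4% [69.6, 73.2], and these matched 1713 PPARα peaks, 5.89% [5.62, 6.17] of that list. The remaining 686 PPARδ peaks and 27372 PPARα peaks were listed for a single factor, which makes 29771 sites in all. Matched centers were close, with a median distance of 26 bp (quartiles 12 and 46 bp). Of the 1713 pairs, 1338 (78.1%) were under 50 bp apart, 303 were 50 to 100 bp apart and 72 were farther apart. The limit of 200 bp fell in a sparse range, with 7 PPARδ peaks at 180 to 200 bp and 3 beyond it, up to 220 bp. PPARδ-alone peaks had a median distance of 28.0 kb to the nearest PPARα peak. Of the 686, 482 (70.3%) were over 10 kb away and 130 (19.0%) over 100 kb, but 67 had a PPARα center within 1000 bp, so that "alone" does not always mean an empty neighborhood.

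**Figure D1:**
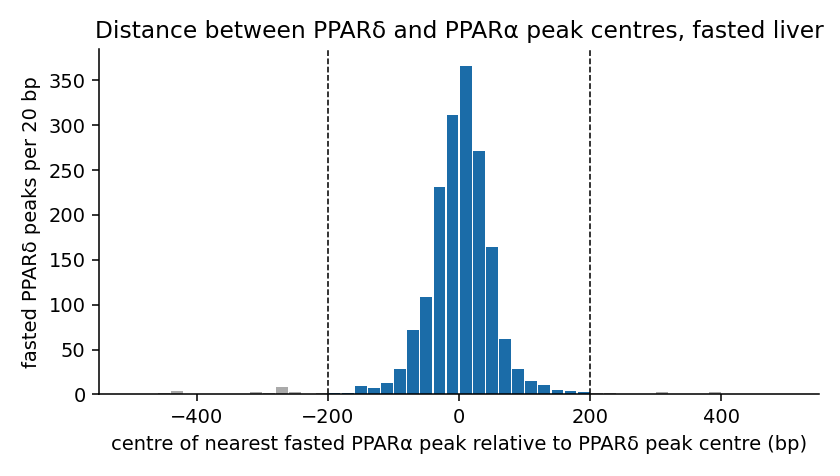
Distance in bp from each fasted PPARδ peak center to the nearest fasted PPARα peak center, as PPARδ peaks per 20 bp (y axis). Blue bars are the matched pairs, 1338 of 1713 of them under 50 bp apart, and the dashed lines mark 200 bp on either side.

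The sequences under the peaks were read for the element that the factors are known to bind. Windows of 100 bp at the peak centers were scanned on both strands for DR1 with at most 2 mismatches. Every match of at most 2 mismatches was then found in the shared peaks of the genes reported here that have a browser track or ChIP-qPCR region in the study, the genes with most peaks of a class, and the PPARδ-bound promoters nearest to a start. The 9 such matches are shown 5′ to 3′ with 18 bases on either side, in mm10, with the repeat in capitals, because both receptors were listed there.
*Acot2*, chr12:83987369-83987417, plus strand: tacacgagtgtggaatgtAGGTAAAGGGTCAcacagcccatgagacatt
*Bdh1*, chr16:31399357-31399405, minus strand: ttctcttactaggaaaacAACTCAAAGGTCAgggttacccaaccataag
*Cd36*, chr5:17924363-17924411, plus strand: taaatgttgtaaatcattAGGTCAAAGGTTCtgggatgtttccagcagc
*Cyp4a31*, chr4:115555552-115555600, plus strand: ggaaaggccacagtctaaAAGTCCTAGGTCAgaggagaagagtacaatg
*Lipc*, chr9:70934800-70934848, plus strand: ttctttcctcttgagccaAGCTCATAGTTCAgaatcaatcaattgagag
*Nr2f2*, chr7:70525577-70525625, plus strand: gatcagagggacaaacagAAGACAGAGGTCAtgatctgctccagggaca
*Ptpn1*, chr2:167857046-167857094, plus strand: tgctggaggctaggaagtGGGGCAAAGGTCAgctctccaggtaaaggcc
*Txnip*, chr3:96555396-96555444, plus strand: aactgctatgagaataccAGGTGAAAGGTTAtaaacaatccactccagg
*Txnip*, chr3:96564195-96564243, plus strand: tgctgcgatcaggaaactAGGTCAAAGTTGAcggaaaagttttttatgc
The *Acot2* (acyl-CoA thioesterase) and *Lipc* (hepatic lipase) sequences lie in the promoters, 427 and 14 bp upstream of the starts by peak center. A T stands directly before the repeat in 4 of these 9 sequences.

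In the PPARδ-alone peaks of the same genes and promoters 2 such matches were found, and they are shown for comparison with the shared ones.
*Cdc7*, chr5:107020532-107020580, minus strand: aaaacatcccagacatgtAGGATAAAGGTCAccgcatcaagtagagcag
*Chst15*, chr7:132314738-132314786, minus strand: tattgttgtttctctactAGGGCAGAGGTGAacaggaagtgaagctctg
Both have a T directly before the repeat. The second lies 2292 bp inside *Chst15* (a sulfotransferase acting on chondroitin sulfate), in the promoter of the overlapping noncoding gene *Gm10584*, and holds aggaagt, the core of an ETS element, within 18 bases of the repeat.

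PPARα-alone peaks of the same genes held 9 matches with at most 1 mismatch. They are shown because the shared peaks of these genes held none so near to the consensus.
*Bdh1*, chr16:31424931-31424979, plus strand: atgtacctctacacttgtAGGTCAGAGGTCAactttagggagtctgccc
*Chst15*, chr7:132325834-132325882, plus strand: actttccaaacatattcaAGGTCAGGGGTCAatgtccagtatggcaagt
*Irs2*, chr8:10854730-10854778, minus strand: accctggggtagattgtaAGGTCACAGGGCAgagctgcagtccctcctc
*Irs2*, chr8:10948381-10948429, minus strand: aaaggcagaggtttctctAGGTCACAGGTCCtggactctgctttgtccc
*Lpp*, chr16:24424491-24424539, plus strand: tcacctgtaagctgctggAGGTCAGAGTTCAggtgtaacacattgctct
*Myc*, chr15:62346809-62346857, minus strand: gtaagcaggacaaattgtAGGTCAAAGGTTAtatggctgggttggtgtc
*Nfia*, chr4:98039226-98039274, minus strand: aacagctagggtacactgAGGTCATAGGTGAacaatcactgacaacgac
*Nr2f2*, chr7:70584617-70584665, plus strand: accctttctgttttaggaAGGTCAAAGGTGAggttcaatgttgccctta
*Ptpn1*, chr2:167877418-167877466, minus strand: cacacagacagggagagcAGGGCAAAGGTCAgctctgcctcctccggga
Of these 9, 3 have a T directly before the repeat. *Bdh1* (3-hydroxybutyrate dehydrogenase, of ketone body metabolism) thus had a perfect repeat in a PPARα-alone peak in its intron and a repeat with 2 mismatches in a shared peak 22930 bp upstream. These genes include those named for most PPARα-alone peaks, so many such peaks were searched and the sequences do not rank the classes. Over all PPARα peaks, the best match had 1 mismatch in 3.68% of shared and 2.07% of PPARα-alone peaks.

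Over all peaks, DR1 was found most often where both factors were listed. The share was 17.6% [15.9, 19.5] of 1713 shared PPARα peaks against 9.25% [8.91, 9.60] of 27372 PPARα-alone peaks, an odds ratio of 2.10 (adjusted p = 6.58e-25, Fisher's exact test, two-sided). Taken at the PPARδ centers, it was 17.7% [16.0, 19.6] of shared and 13.7% [11.3, 16.5] of PPARδ-alone peaks, an odds ratio of 1.36 (adjusted p = 0.0217), a call that was lost in windows of 50 bp and at 1 mismatch. In windows 1000 bp to either side the shares were 1.75%, 1.31% and 1.55% for shared PPARδ, PPARδ-alone and PPARα-alone peaks, and 1.11% of all 100-bp tiles of the genome held a match. All classes thus carried the element above their flanks, including the PPARδ-alone peaks. Perfect repeats were rare, with 7 among the shared peaks (0.409%), 62 among PPARα-alone peaks (0.227%) and 4 among PPARδ-alone peaks (0.583%).

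The bases before the repeat also varied between the classes. A T stood directly before it in 172 of 302 repeats [51.3%, 62.4%] at shared PPARα peaks, in 61.7% [51.6, 70.9] of 94 repeats at PPARδ-alone peaks, and in 21.7% [20.1, 23.3] of 2532 repeats at PPARα-alone peaks. An A stood 4 bases before it in 47.0%, 55.3% and 32.2%, and an A 3 bases before it in 42.1%, 58.5% and 27.8%, in the same order. All 3 bases were present in 17.5%, 26.6% and 4.66% of the repeats. Outside promoters the T was found at shared peaks in 55.2% of 277 repeats, against 22.1% of 2371 at PPARα-alone peaks outside promoters. These bases were looked at after the sequences had been seen, and the shares are given without a test. An extension of this kind, AACT before the repeat, is known from PPAR elements.

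The HNF6, C/EBP and HNF4 motifs and the single nuclear receptor half-site were more frequent at PPARδ peaks with PPARα than at those without. C/EBP, FOXA, HNF1, HNF4 and HNF6 are factors that maintain the hepatocyte program. Motifs were searched on both strands without mismatch. The HNF6 element ATTGATT, present in 1.67% of all 100-bp genome tiles, was found in 5.20% of shared PPARδ peaks and in 4 of 686 PPARδ-alone peaks (0.583%), an odds ratio of 9.34 (adjusted p = 4.09e-08). The C/EBP element, TTGC and AA with any 2 bases between (4.64% of tiles), was found in 12.5% and 5.39% (odds ratio 2.50, adjusted p = 6.55e-07), and its share at PPARδ-alone peaks was near that of their flanks, 4.52%. The HNF4 element, CAAAG followed by TCCA (0.123% of tiles), was found in 15 shared peaks and 0 of 686 PPARδ-alone peaks, which allows a share of up to 0.437% if 3 counts are taken as the limit for a count of 0, and up to 0.557% by the Wilson interval (adjusted p = 0.0308). The single half-site AGGTCA, which is also part of DR1 and is present in 5.54% of tiles, was found in 27.6% and 22.3% (odds ratio 1.33, adjusted p = 0.0299). These 4 of 16 motifs (25.0%) passed the test in this contrast, all higher in shared peaks. FOXA (TGTTTAC, 1.47% of tiles) did not pass, with 4.20% and 2.48% (adjusted p = 0.124).

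Against PPARα-alone peaks, the shared peaks differed in 5 of 16 motifs (31.2%). The half-site was higher, 26.5% against 20.8% (odds ratio 1.37, adjusted p = 5.75e-07). The glucocorticoid receptor element was also higher, 1.46% against 0.661% (odds ratio 2.22, adjusted p = 0.00249). ETS with a CpG (CCGGAAG, 0.272% of tiles) was lower, 0.584% against 2.88% (odds ratio 0.198, adjusted p = 1.34e-09), as were the SP element, 0.525% against 1.56% (odds ratio 0.334, adjusted p = 0.00102), and HNF1, 0.467% against 1.51% (odds ratio 0.306, adjusted p = 6.32e-04). ETS and SP are elements of CpG-rich promoters. In promoter peaks SP was found in 1 of 142 shared (0.704%) and 310 of 4283 PPARα-alone peaks (7.24%), and outside promoters in 0.509% and 0.502%. ETS was found in 2 of 142 (1.41%) and 536 of 4283 (12.5%) in promoters and in 0.509% and 1.1% outside them. HNF1 was found in 0.509% and 1.66% outside promoters. C/EBP and HNF6 were found in 13.2% and 5.20% of shared against 12.4% and 4.98% of PPARα-alone peaks (adjusted p = 0.522 and 0.890).

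An ETS core without CpG, ACTTCCT, was added after short words enriched at PPARδ-alone peaks had been seen, so its shares carry no test. It was found in 9.33% [7.37, 11.7] of 686 PPARδ-alone peaks and 2.55% of their flanks. At shared PPARδ peaks it was found in 3.74%, and at PPARα-alone peaks in 4.04%. AGGTCA preceded by GT, added likewise, was found in 2.19% of PPARδ-alone and 2.04% of shared PPARδ peaks, but in 0.712% of PPARα-alone peaks. The AP-1 element was found in 2.48%, 3.74% and 3.85% of the same peaks.

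**Figure D2:**
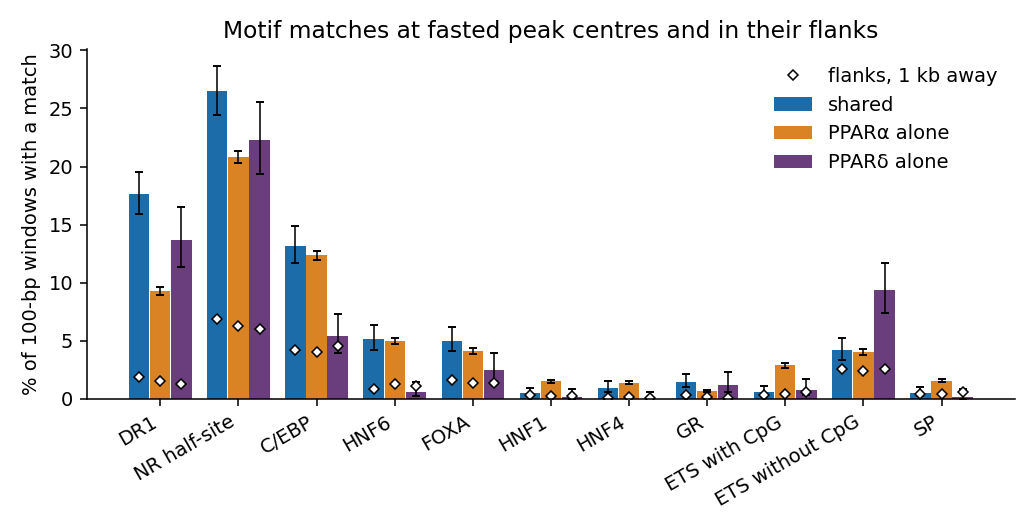
Share of 100-bp windows at fasted peak centers that hold each motif (y axis, %), for shared (at PPARα centers), PPARα-alone and PPARδ-alone peaks, with 95% Wilson intervals; diamonds give the share 1 kb to either side. DR1 stands above the flanks in all 3 classes, and C/EBP at PPARδ-alone peaks (5.39%) is near its flanks (4.52%). ETS without CpG, 9.33% at PPARδ-alone peaks, was picked from words enriched in those same peaks, so its height there follows from that choice.

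PPARα peaks with PPARδ lay less often in promoters than those without. A promoter reached from 1000 bp before a RefSeq start to 100 bp after it, and 142 of 1713 shared PPARα peaks (8.29% [7.08, 9.69]) and 4283 of 27372 PPARα-alone peaks (15.6% [15.2, 16.1]) were in a promoter (odds ratio 0.487, adjusted p = 2.30e-18). Intergenic sequence held 43.2% against 34.4%, and introns held 45.7% and 45.6%. PPARδ-alone peaks were in promoters in 44 of 686 cases (6.41% [4.81, 8.50]) against 8.41% [7.18, 9.82] of shared PPARδ peaks (odds ratio 1.34, adjusted p = 0.121), and the call depended on the settings, with an adjusted p of 0.0034 at 400 bp and 0.0128 with promoters that reached 5000 bp before and 1000 bp after a start. PPARδ-alone peaks had a median distance of 29.0 kb to the nearest coding start, with 22.4% over 100 kb away, against 19.0 kb and 12.2% for shared PPARδ peaks and 15.6 kb and 13.4% for PPARα-alone peaks. Base composition was alike, with a median GC content of 49% in shared and PPARα-alone and 48% in PPARδ-alone windows.

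The promoters that both factors occupied were less often CpG-rich than those with PPARα alone. Promoters were called CpG-rich where a 500-bp window had an observed to expected CpG ratio of at least 0.75 and at least 55% GC, as at most housekeeping genes, and CpG-poor where no window reached 0.48, as at many tissue-specific genes. Of promoter peaks, 74 of 142 shared (52.1% [43.9, 60.2]) and 2996 of 4283 PPARα-alone (70.0% [68.6, 71.3]) were at CpG-rich promoters (odds ratio 0.467, adjusted p = 1.60e-05), and 32.4% against 14.5% were at CpG-poor ones. Among all 31603 starts, 43.6% were CpG-rich and 36.3% CpG-poor. The shared peaks were thus not above all starts in their CpG-poor share, and the PPARα-alone peaks were below it. Counted from the promoters, 21.8% of 13780 CpG-rich starts but 5.58% of 11485 CpG-poor starts were nearest to a PPARα promoter peak. PPARδ was at 0.755% and 0.470% of them. Of PPARα-bound starts, PPARδ was shared at 2.46% of the CpG-rich, 3.31% of the intermediate and 7.18% of the CpG-poor ones. For PPARδ-alone promoter peaks, 28 of 44 (63.6% [48.9, 76.2]) were at CpG-rich promoters against 77 of 144 (53.5% [45.3, 61.4]) of the shared ones, which did not pass the test (odds ratio 0.657, adjusted p = 0.298) and whose direction turned with the widest promoter setting (1.37). DR1 was found in 18.8% of the 144 shared PPARδ promoter peaks, 9.09% of the 44 PPARδ-alone and 3.76% of the 4283 PPARα-alone promoter peaks.

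The 10 shared promoter peaks nearest to a start were read in turn. *Slc2a2* (the hepatic glucose transporter), *Tfpi2* (a protease inhibitor) and *Tmem140* had their PPARδ centers 1 bp upstream of the start, *Fitm2* (lipid droplet formation) 3 bp and *Ddc* (aromatic amino acid decarboxylase) 8 bp upstream. *Nnmt* (nicotinamide methyltransferase), *Lipc*, the noncoding *4632428C04Rik*, *Spp2* (a secreted liver protein) and *Zfp672* completed the 10 nearest, at most 30 bp from the start. Of these 10 promoters, *Fitm2* and *Zfp672* were CpG-rich and *4632428C04Rik* was intermediate. Each of the 10 was in the fed PPARδ list, and all but *4632428C04Rik* were in the fed PPARα list. Of all 144 shared PPARδ promoter peaks, 81.9% were in the fed PPARδ and 77.8% in the fed PPARα list. By promoter class, 53.5% of the 144 were CpG-rich and 30.6% CpG-poor. The 10 nearest PPARδ-alone promoter peaks were at *Ifi47* (an interferon-induced GTPase), *Rps19* (a ribosomal protein), *Sod3* (extracellular superoxide dismutase), *Hgf* (hepatocyte growth factor, made by stellate cells), *Gm26698*, *Gpihbp1* (the lipoprotein lipase anchor of endothelial cells), *Psip1*, *2310010J17Rik*, *Eef1d* (a translation elongation factor) and *Cavin2* (a caveolae protein), 9 to 85 bp from the start. Of these 10, *Ifi47*, *Rps19* and *Gm26698* were in the fed PPARδ list and none in the fed PPARα or fasted BCL6 list. Their promoters were CpG-poor in 5 cases, CpG-rich in 4 and intermediate in 1. Of all 44 PPARδ-alone promoter peaks, 25.0% were in the fed PPARδ list, 2.27% in the fed PPARα list and 0 in the fasted BCL6 list. By promoter class, 22.7% of the 44 were CpG-poor and 63.6% CpG-rich. The *Rps19* peak lay 359 bp from a PPARα peak, so a PPARα peak stood near it without matching.

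The presence of a site in the fed lists, which the rule did not use, differed between the classes. Of shared PPARα peaks, 86.6% [84.9, 88.1] were also in the fed PPARα list, against 15613 of 27372 [56.5%, 57.6%] PPARα-alone peaks (odds ratio 4.86, adjusted p = 5.61e-146). Of shared PPARδ peaks, 81.3% [79.4, 83.1] were in the fed PPARδ list, against 137 of 686 [17.2%, 23.1%] PPARδ-alone peaks (odds ratio 17.4, adjusted p = 8.36e-176). Both fed PPAR lists held 74.7% of the shared PPARδ peaks, while 77.7% of the PPARδ-alone peaks were in neither fed list. Few PPARδ-alone peaks were PPARα peaks in fed liver, 26 of 686 (3.79%). Among PPARα-alone peaks, 4928 (18.0%) were in the fed PPARδ list, and 4337 of these were also in the fed PPARα list. In the fed lists themselves PPARα was at 5899 of 7328 PPARδ peaks (80.5%), beside 71.4% in the fasted lists. Each state has 1 pooled list per factor, and 1530 of the 2399 fasted PPARδ peaks (63.8%) are also in the fed list. No p-value for a difference between the states is therefore given.

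The same features were read after dividing the peaks by the fed PPARδ list. DR1 was found in 17.6% of PPARα peaks with fasted PPARδ, 13.6% of those with fed PPARδ only and 8.29% of the 22444 with neither. A T directly before the repeat was found in 172 of 302, 182 of 671 (27.1% [23.9, 30.6]) and 367 of 1861 (19.7% [18.0, 21.6]) of their repeats. Of PPARδ-alone peaks, the 137 in the fed PPARδ list held DR1 in 19.0% and ACTTCCT in 15.3%, and the 549 others in 12.4% and 7.83%. C/EBP was found in 5.11% and 5.46%. These shares are given without a test.

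BCL6 accompanied the shared peaks and was nearly missing from PPARδ-alone peaks. The fasted BCL6 list held 49.1% [46.7, 51.5] of shared and 25.2% [24.7, 25.7] of PPARα-alone peaks (odds ratio 2.86, adjusted p = 5.77e-93). By PPARδ centers, it held 834 of 1713 shared (48.7%) and 10 of 686 PPARδ-alone peaks (1.46% [0.794, 2.66]), an odds ratio of 64.1 (adjusted p = 1.44e-138), which was 31.4 with centers within 100 bp. PPARδ-alone peaks have no fasted PPARα peak by definition, and the study reports PPARα at most BCL6 sites. This contrast is therefore partly built in. Outside promoters the shares were 51.2% and 28.4% for shared and PPARα-alone peaks, and in promoters 26.1% and 8.06%. In the fed BCL6 list the PPARδ-alone share was 1.31% and the shared one 57.9%. PPARα-alone peaks that were in the fed PPARδ list had fasted BCL6 in 49.1%, the value of the shared peaks, and those with no PPARδ in either state in 19.9%.

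**Figure D3:**
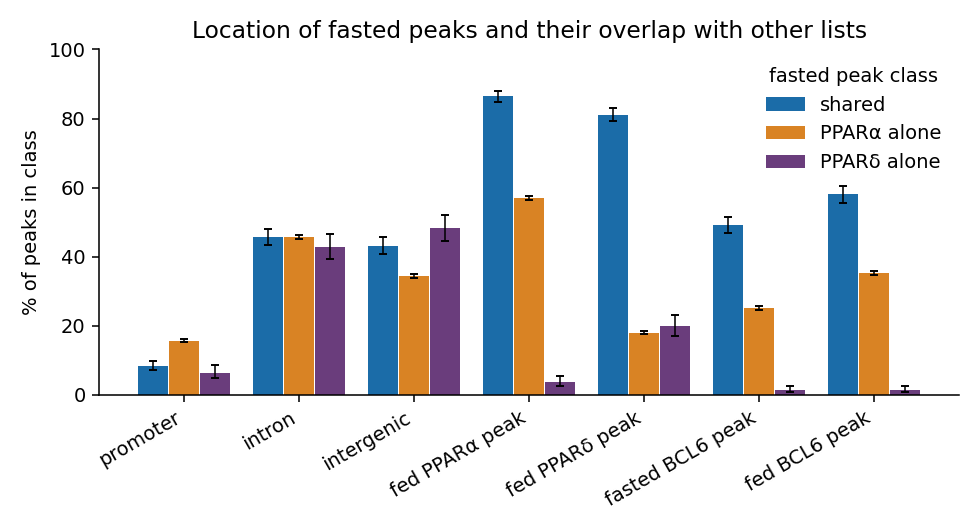
Share of fasted peaks (y axis, %) in promoters, introns and intergenic sequence and within 200 bp of a peak of the fed PPAR and the BCL6 lists, for shared (at PPARα centers), PPARα-alone and PPARδ-alone peaks, with 95% Wilson intervals. Shared peaks reach 86.6% in the fed PPARα list and 49.1% in the fasted BCL6 list, and PPARδ-alone peaks 3.79% and 1.46%.

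Peaks were assigned to the nearest start of 21000 protein-coding genes within 1 Mb, which gives each peak at most 1 gene and does not show that the gene is regulated. A fasted PPARα peak was assigned to 9789 genes (46.6%), a fasted PPARδ peak to 1889 (9.00%), a shared peak to 1378 (6.56%; 543 with a reach of 10 kb) and a PPARδ-alone peak to 618 (2.94%). A single shared peak was found at 1126 of the 1378 genes (81.7%). Genes with a shared peak had a median of 4 PPARα peaks, against 2 at PPARα-bound genes without one, and 171 (12.4%) had no other PPARα peak. A gene with more PPARα peaks has more places where one can be shared, so this difference is partly built in. Among genes with a PPARα peak, 14.1% had a shared one. Of the 618 genes with a PPARδ-alone peak, 445 (72.0%) had a PPARα peak elsewhere and 107 had a shared one.

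Nearly all genes of mitochondrial fatty acid oxidation had a shared peak. In the list of 15 enzymes, all 15 had a PPARα peak and 14 (93.3%) had a shared one, against 6.56% of all genes, with *Echs1* (enoyl-CoA hydratase) the exception at 2 PPARα peaks and 0 PPARδ peaks. *Acaa2* (thiolase) had 11 PPARα peaks and *Decr1* (dienoyl-CoA reductase) and *Hadh* (hydroxyacyl-CoA dehydrogenase) 6 each, of which 2 were shared at each gene. *Acadm* (medium-chain acyl-CoA dehydrogenase) had 2 shared peaks of 4, at 330 bp and 3779 bp upstream of the start (chr3:153944871-153945075 and chr3:153948320-153948524). Of the 7 genes of the carnitine shuttle, which carries acyl groups into mitochondria, 4 had a shared peak. These were *Slc22a5* (the carnitine transporter) with 2 peaks, and *Cpt1a* (the rate-limiting transferase), *Cpt2* and *Slc25a20* (the acylcarnitine carrier) with 1 each, in intron 1 of *Cpt1a* and *Cpt2* and 32 bp downstream of the *Slc25a20* start. *Cpt1c*, the form of the brain, had no peak.

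Peroxisomal oxidation followed, with 11 of 15 genes (73.3%) at a shared peak. *Crot* (carnitine octanoyltransferase) had 4 of its 8 PPARα peaks shared, between 31413 and 43610 bp upstream by center. *Abcd3* (a peroxisomal acyl-CoA transporter) had 3 of 13 shared and *Acaa1a* (thiolase) both of its 2. *Acox3* had a PPARδ-alone peak and no PPARα peak. Of the peroxisome biogenesis genes, 11 of 15 were assigned a PPARα peak and 2 (13.3%) a shared one, *Pex2* and *Pex16*. A further shared peak lay in the promoter of *Pex13*, 678 bp upstream of its start (chr11:23666459-23666663), and was assigned to *Pus10*, whose start was nearer. Of 9 omega-oxidation genes, 4 were shared with 1 peak each, *Aldh3a2* (fatty aldehyde dehydrogenase) and the *Cyp4a* hydroxylases *Cyp4a10*, *Cyp4a31* and *Cyp4a32*, and all 9 had PPARα. *Cyp4a* genes are near-identical copies, and the authors kept uniquely mapped reads only, so peaks in identical stretches cannot be seen.

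Ketone body, uptake and storage genes were shared in about the same proportion. Of 8 ketone body genes, 4 (50.0%) had a shared peak. *Bdh1* had 2 of 9 PPARα peaks shared, *Slc16a1* (a monocarboxylate transporter) 1 of 7 and *Acat1* 1 of 4. Of 12 fatty acid uptake and activation genes, 6 (50.0%) were shared, among them *Cd36* (a fatty acid translocase) and *Acsl1* (acyl-CoA synthetase) with 4 shared peaks each, *Fabp1* (the liver fatty acid binding protein) with 3 and *Slc27a2* (an acyl-CoA synthetase of fatty acid transport) with 2. Of 14 lipid droplet and lipolysis genes, 8 (57.1%) were shared, with 2 peaks each at *Mgll* (monoacylglycerol lipase), *Plin2* (a droplet coat protein) and *Cidec*. *G0s2* (an inhibitor of lipolysis) had 1 shared peak and 2 PPARδ-alone peaks, which lay 520 and 481 bp from PPARα centers. Of 11 hepatokine and fuel switching genes, 6 (54.5%) were shared. *Txnip* (a regulator of glucose uptake) had 5 shared peaks, *Pdk4* (pyruvate dehydrogenase kinase) 3 and *Angptl4* (an inhibitor of lipoprotein lipase) 1.

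In the lists of lipid synthesis, glucose and amino acid metabolism, a shared peak was assigned to between 21.4% and 33.3% of genes. This stands beside 6.56% of all genes and 14.1% of genes with a PPARα peak, and PPARα was at most of the listed genes. By peaks, shared and PPARα-alone counts were 5 and 54 for desaturases and elongases, 5 and 40 for lipogenesis and 3 and 41 for gluconeogenesis. They were 3 and 63 for urea cycle and amino acid catabolism, beside 5.89% shared over all PPARα peaks. Desaturases and elongases were shared at 3 of 9 genes (33.3%), *Elovl6* with 3 peaks and *Fads1* and *Fads2* with 1 each, and all 9 had PPARα. Lipogenesis was shared at 3 of 10 (30.0%), *Gpam* with 3 peaks and *Thrsp* and *Me1* with 1 each, gluconeogenesis at 2 of 9 (22.2%), *G6pc* with 2 peaks and *Pck1* with 1, and urea cycle and amino acid catabolism at 3 of 14 (21.4%), *Ass1*, *Glul* and *Cps1*. Acyl-CoA thioesterases were shared at 3 of 13 (23.1%), *Acot1* with 3 peaks and *Acot2* and *Acot4* with 1 each, and *Acot7* had a PPARδ-alone peak. All 23 nuclear receptor and coregulator genes had PPARα and 4 were shared (17.4%), *Rxra* and *Nr3c1* (the glucocorticoid receptor) with 2 peaks and *Ppara* and *Nr1h4* (the bile acid receptor) with 1. The shared *Ppara* peak was in intron 2, whereas *Ppard* itself had 2 PPARα peaks and no PPARδ peak.

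Genes of general cell functions were assigned PPARα about as often as all genes, and a shared peak in few cases. A PPARα peak was assigned to 23 of 40 proteasome genes (57.5%), 35 of 78 mitochondrial ribosomal proteins (44.9%), 22 of 48 complex I genes (45.8%) and 46 of 84 cytosolic ribosomal proteins (54.8%), near the 46.6% of all genes. A shared peak was assigned to 0 of 40, 2 of 78 (2.56%), 2 of 48 (4.17%) and 2 of 84 (2.38%) of them, beside the 6.56% of all genes. These counts are small. By peaks, shared and PPARα-alone counts were 0 and 46, 2 and 54, 2 and 38, and 5 and 84 in the same order. Over all PPARα peaks, 5.89% were shared. A PPARδ-alone peak was assigned to 0 of 40, 0 of 78, 1 of 48 (2.08%) and 3 of 84 (3.57%), beside 2.94% of all genes. Mitochondrial carriers, by comparison, were shared at 10 of 47 (21.3%), among them *Slc25a33* and *Slc25a10* with 2 peaks each. Keratins had 10 of 53 genes with PPARα and 0 shared, and olfactory receptors, which serve as an outgroup, had 30 and 2 of 1107. The members of a list share promoters, clusters and function, so these counts are descriptions.

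**Figure D4:**
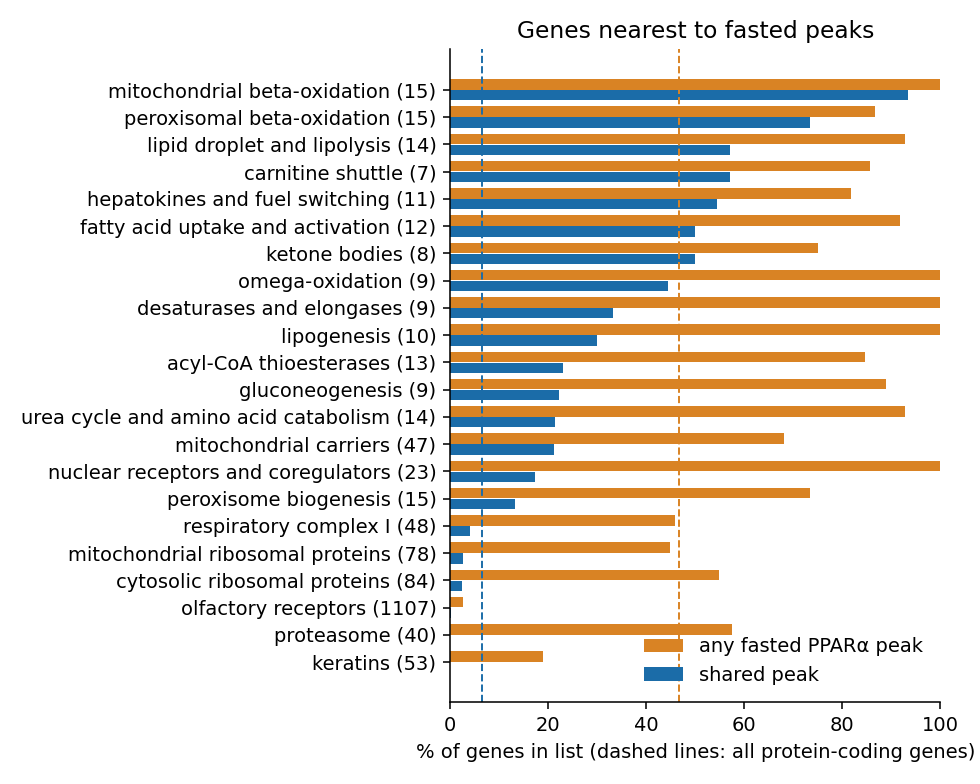
Share of genes in each list (x axis, %; number of genes in brackets) that are nearest to any fasted PPARα peak (orange) or to a shared peak (blue), with all protein-coding genes as dashed lines at 46.6% and 6.56%. Mitochondrial and peroxisomal oxidation have shared peaks at 93.3% and 73.3% of genes and the proteasome list at none.

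The genes with most shared peaks were *Gadd45g* (a stress-response gene), *Myc*, *Nr2f2* (the orphan receptor COUP-TFII), *Ptpn1* (the phosphatase of insulin signaling) and *Txnip*, with 5 each. They had 18, 28, 23, 18 and 4 further PPARα peaks. *Myc* and *Nr2f2* are flanked by long stretches without coding genes, and the shared peaks there lay up to 360749 and 432609 bp from the start. Most PPARα-alone peaks were at *Rora* (32), *Irs2* and *Nfia* (31 each) and *Lpp* and *Sox9* (30 each), which had 1, 2, 1, 2 and 1 shared peaks. Most PPARδ-alone peaks were 3, at 10 genes, of which the first 5 by name were *Afap1l2*, *Arhgap15*, *Cd180*, *Cdc7* and *Chst15*. The 3 *Cd180* peaks lay 100016 to 377263 bp upstream of the start, and the gene also had 2 shared peaks. The 3 *Arhgap15* peaks lay in introns 6, 8 and 10, at least 11412 bp from PPARα.

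Markers of other liver cell types were read because whole liver was used, and positions do not show which cells held a site. All 11 hepatocyte markers had a PPARα peak, 3 had a shared one (*Alb*, *Apoa1*, *Ttr*) and 2 a PPARδ-alone one (*Apoa1*, *Serpina1c*). Of 4 stellate cell markers, *Reln* and *Col1a1* had PPARδ-alone peaks, 2 and 1. *Reln* also had 1 PPARα-alone peak, *Dcn* had 2 PPARα-alone peaks and *Lrat* had no peak. Of 4 endothelial markers, *Kdr* and *Pecam1* had 1 PPARδ-alone and 2 PPARα-alone peaks each. *Kdr* also had a shared peak, *Stab2* had PPARα alone and *Clec4g* had no peak. Of 6 Kupffer cell and leukocyte markers, 0 had a PPARδ peak and 2 had PPARα, *Ptprc* and *Adgre1*. Of 4 cholangiocyte markers, *Sox9* had a shared peak, *Krt7* a PPARα-alone peak and *Epcam* and *Krt19* none. In longer lists made after some gene names had been seen, a PPARδ-alone peak was at 5 of 17 stellate genes (29.4%), 2 of 24 endothelial (8.33%), 0 of 20 macrophage and 3 of 24 hepatocyte genes (12.5%), against 2.94% of all genes. The 5 stellate genes were *Reln*, *Col1a1*, *Colec11*, *Cygb* and *Tcf21*. The part of other cells in the PPARδ-alone class was not tested.

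Most genes with a track or ChIP-qPCR region in the study had a shared peak. Of 15 such genes reported here, 11 had one, beside 6.56% of all genes and 14.1% of genes with a PPARα peak. All 15 had PPARα. Many of these genes were chosen by the study to show PPAR binding, so the counts partly follow from that choice and are descriptions. *Cd36* had 5 PPARδ peaks, 4 of them shared, at 35410 and 13510 bp upstream and 105 and 12084 bp downstream of a start. *Abhd2* (a lipase-like hydrolase) had 2 shared and 8 PPARα-alone peaks, and its PPARδ-alone peak in intron 1 was 425 bp from PPARα. *Fads2* and *Angptl4* had 1 shared peak each and a PPARδ-alone peak 11052 and 3786 bp from PPARα. *Acot2* was assigned a single PPARα peak, which was shared. A further PPARα peak lay at its ChIP-qPCR region, 5674 bp from the fasted PPARδ peak, and was assigned to another gene with a nearer start. *Acot3*, *Idh2* (isocitrate dehydrogenase), *Por* (the reductase of microsomal P450 enzymes) and *Ppard* had 3, 8, 10 and 2 PPARα peaks and no PPARδ peak. Of the 10 *Por* peaks, 5 were in the fed PPARδ list.

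The 13 ChIP-qPCR regions reported here were placed in mm10 and all 13 had a fasted PPARα center within 200 bp. A fasted PPARδ center was within 200 bp of 6 of them, whereas the fed PPARδ list held 12. The 6 were at *Acot4* (chr12:84033026-84033140), *Angptl4* (chr17:33779476-33779553), *Bdh1* (chr16:31399316-31399378), *Cd36* (chr5:17876880-17876995), *Ehhadh* (chr16:21782878-21782982) and *Fads2* (chr19:10122472-10122571). Regions at *Abhd2*, *Acot2*, *Acot4* (the second one), *Cyp4a31*, *Idh2* and *Por* had PPARδ in the fed list only, and *Acot3* in neither. At *Acot2* the region lay 5674 bp from the fasted PPARδ peak of the promoter. The study placed its ChIP-qPCR regions at sites that BCL6 and PPARα share, so the PPARα count follows from that choice and the counts are descriptions.

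**Figure D5:**
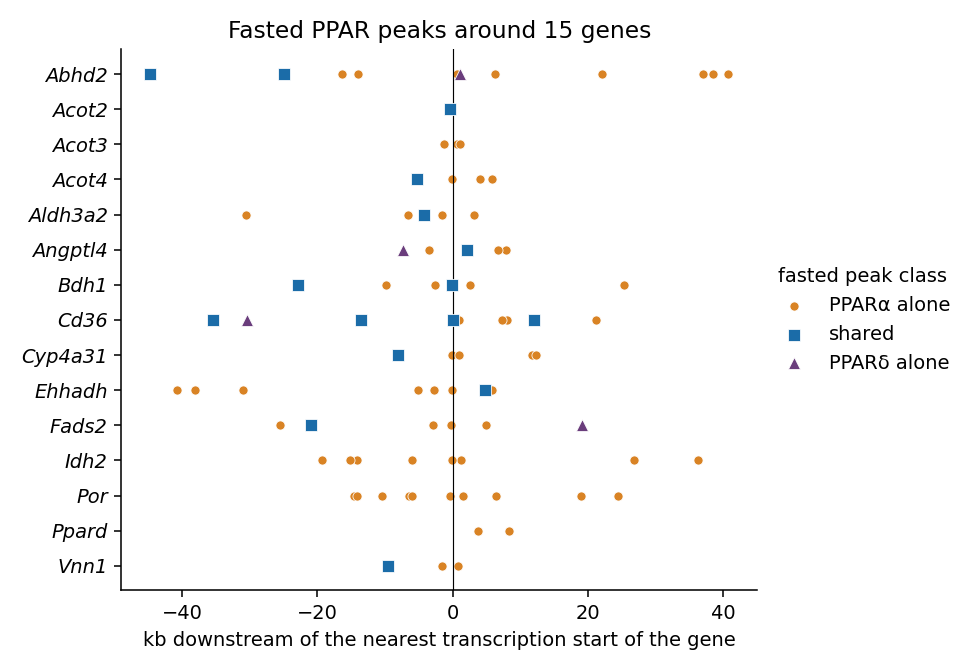
Fasted peaks assigned to 15 genes with a track or ChIP-qPCR region, by distance of the peak center from the nearest start of the gene (x axis, kb, positive downstream), out to 60 kb. Squares are shared peaks, circles PPARα-alone and triangles PPARδ-alone; *Acot3*, *Idh2*, *Por* and *Ppard* have circles only.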

How the data were processed

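ChIP-seq with antibodies to PPARα and PPARδ was done on whole liver of overnight fasted wild-type mice, in triplicate. Per the study's methods, the authors used Bowtie for alignment to mm10, discarded multiply mapped reads, limited each position to 1 read, called peaks with HOMER on the pooled triplicates against input, and used DESeq2 to keep peaks of at least 2-fold enrichment at an FDR under 0.05. The deposited lists used here hold peak positions only (chromosome, start and end), with no count, score or p-value per peak, so the depth per sample is unknown and replicates cannot be separated.

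Peaks were matched by centers within 200 bp. Positions were read against RefSeq for GRCm38.p6, the assembly of mm10, for promoters, the nearest coding start, promoter CpG class and sequence. Beside DR1, 16 motifs were searched: the nuclear receptor half-site, ERR, HNF4, FOXA, C/EBP, HNF6, HNF1, BCL6 or STAT, glucocorticoid receptor, CREB, ETS, NRF1, SP, NF-Y, YY1 and CTCF. Another 3 motifs and the longer marker lists were added after values had been seen and have no test. Fisher's exact test (two-sided) compared the shares, and p-values were adjusted by Benjamini-Hochberg over 11 contrasts and, separately, over 32 motif tests, with a threshold of 0.05. The contrast between fasted and fed lists is given without its p, since those lists share sites. SciPy 1.17.1 gave the tests and Matplotlib 3.10.9 the figures, under Python 3.11.15 with NumPy 2.4.6, and the scripts were tested on simulated data.

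The peak classes, gene lists and tests were chosen with earlier results of these data known. Genes were named by rule: those with a track or ChIP-qPCR region in the study, the 5 with most peaks of each class, up to 4 members per list with most PPARδ peaks together with members lacking PPARα where 5 or fewer lack it, and the 10 PPARδ promoter peaks of each class nearest to a start. *Echs1*, *Cygb* and *Tcf21* were named after their values were seen. Values of some single genes under this rule are not reported here, and list totals include all members. Alternatives changed the matching distance, promoter limits, scanning window, mismatches, gene reach and comparison list.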

Additional observations from a re-analysis of the deposited data

How the results depend on the processing

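Of 68 alternative values of the contrasts between peak classes, 63 kept their direction and their side of the threshold. Of 10 alternative values of the matched shares, 9 stayed within the 95% Wilson interval, and of 13 alternative counts of genes or motifs, 11 stayed within 1.5 times the reported count. The share of PPARδ peaks with PPARα was 68.4% with centers within 100 bp. The promoter contrast of shared against PPARδ-alone peaks passed the test at 400 bp (odds ratio 1.76, adjusted p = 0.0034) and with promoters from 5000 bp upstream to 1000 bp downstream (1.37, adjusted p = 0.0128). The CpG-rich contrast of the same classes reversed with those wider promoters (odds ratio 1.37, adjusted p = 0.181). Their DR1 contrast no longer passed in windows of 50 bp (1.24, adjusted p = 0.249) or with at most 1 mismatch (1.60, adjusted p = 0.106). In windows of 200 bp, 14 motif contrasts passed against 9 in 100 bp, and 543 genes had a shared peak within 10 kb against 1378 within 1 Mb. The causes were not tested. No paired analysis was possible because the lists pool their replicates, and for the same reason no replicate could be left out.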
